A study of Mus musculus with 2 samples.

Results

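The 36 genes described here are the best studied imprinted genes of the mouse and their partners in imprinted clusters, 30 protein-coding and 6 long noncoding. They were taken by name, with no threshold on a measured value, from the GENCODE M21 annotation and stand among 32052 protein-coding and long noncoding genes. All 36 names were found. Accessible chromatin was mapped by DNase-seq, which sequences the ends left where the enzyme DNase I cuts open DNA in isolated nuclei, in whole kidney. Both libraries come from untreated male mice aged 25 days of the strain B6CASTF1/J, the F1 hybrid of C57BL/6J and CAST/EiJ, and they form 1 group with no control or treated samples. The labels tie the libraries to separate biosamples and animal numbers under a shared donor code. No test between animals is possible with 2 libraries in 1 group, so every comparison below is a description with the value of each library. Paired values give replicate 1 first.

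An imprinted gene is transcribed only or mainly from the copy inherited from the mother or from the father, in some or all tissues. The mark that tells the copies apart is DNA methylation laid down in the egg or the sperm at a differentially methylated region, or DMR, and kept through development by the factor ZFP57 on the methylated copy. Many such genes govern fetal growth and fall in expression after birth, and others stay active in adult organs. The files used here hold a value per site for the maternal and paternal copies together. A site open on 1 copy and a site less open on both therefore cannot be told apart, and neither can fewer open cells and less cutting per cell in whole tissue.

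Replicate 1 had 125393 peaks and 237471 footprints, and replicate 2 had 177001 peaks and 493495 footprints, so weak sites were listed more often in replicate 2. The height of a peak is the signal that the depositors gave it, and a footprint is a short protected stretch inside an accessible site. The read depth behind these values is unknown. Of 9 kidney marker genes, 7 had a promoter peak in both libraries and 9 in replicate 2, with Lrp2, the megalin receptor of the proximal tubule, at 6.93 and 4.53. Of 5 genes that mark liver, neuron, muscle, adrenal cortex and blood, 0 had a promoter peak in both, and Snap25 had a peak of 0.174 in replicate 2 only.

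The sites that carry the clearest pattern are shown first. The control region upstream of H19 keeps H19 and Igf2 apart: on the maternal copy, which is unmethylated, the insulator protein CTCF is known to bind there at several sites. Peaks stood at -2188, -2618 and -3668 bp from the H19 start site in both libraries, and another at -3904 bp in replicate 1 only. All are intergenic in the annotation. The 200 bp around the midpoint of each replicate 1 peak are printed below on the strand of H19 from the mm10-compatible assembly GRCm38.p6, 5′ to 3′. Capitals mark the CTCF core, searched as GGNGGCAG on both strands.
H19 -2188, chr7:142580231-142580430, minus strand: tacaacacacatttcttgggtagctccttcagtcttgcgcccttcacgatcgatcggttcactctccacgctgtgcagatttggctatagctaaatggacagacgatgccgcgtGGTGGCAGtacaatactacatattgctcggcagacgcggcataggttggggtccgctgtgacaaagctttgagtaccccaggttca
H19 -2618, chr7:142580661-142580860, minus strand: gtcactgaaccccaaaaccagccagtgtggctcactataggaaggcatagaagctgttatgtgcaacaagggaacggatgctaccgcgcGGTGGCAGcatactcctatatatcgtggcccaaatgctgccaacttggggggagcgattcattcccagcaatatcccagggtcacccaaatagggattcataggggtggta
H19 -3668, chr7:142581711-142581910, minus strand: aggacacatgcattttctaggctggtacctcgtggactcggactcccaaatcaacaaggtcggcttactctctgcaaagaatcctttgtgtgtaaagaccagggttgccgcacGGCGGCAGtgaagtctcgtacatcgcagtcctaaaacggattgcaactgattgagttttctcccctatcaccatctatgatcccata
H19 -3904, chr7:142581947-142582146, minus strand: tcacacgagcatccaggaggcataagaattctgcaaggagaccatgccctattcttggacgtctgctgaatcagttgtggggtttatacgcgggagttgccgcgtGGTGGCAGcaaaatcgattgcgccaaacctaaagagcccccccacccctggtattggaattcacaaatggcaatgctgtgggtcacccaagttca

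Each of the 4 windows held 1 match to the CTCF core, all on the strand of H19. The pattern is the core of the CTCF sites of this same control region, so matches here were given in advance and are not a result. Of all peaks of the libraries, 11.9% and 10.8% held a match within 200 bp. Of the peaks in the members' loci, 16.3% and 13.4% did. The peak heights were 0.786 and 0.964 at -2188, 1.16 and 1.69 at -2618, 0.556 and 0.735 at -3668, and 0.436 with no peak in replicate 2 at -3904. These were low sites: the highest of them lay at the 60.2 and 75.3 percentile of all peaks. A footprint of replicate 2 overlapped all 4 core matches, and a footprint of replicate 1 overlapped the match at -2618. Across all peaks a footprint overlapped 33.8% and 46.9% of core matches. In the window at -3668 the core has C in place of N and thereby contains the ZFP57 letters given below on the other strand.

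Peg3 gave the second such set. This paternally expressed zinc finger gene (chr7:6703892-6730431) is known for a cluster of sites for the factor YY1 in its first intron, within its DMR. Peaks stood there at 840, 1660, 1960, 2560 and 2840 bp downstream of the start site in replicate 2, and replicate 1 had peaks at 840, 1650, 1910, 2510 and 2890 bp. The windows of the first 4 replicate 2 peaks are printed on the strand of Peg3 with matches to GCCATNTT in capitals. Both strands were searched.
Peg3 840, chr7:6729481-6729680, minus strand: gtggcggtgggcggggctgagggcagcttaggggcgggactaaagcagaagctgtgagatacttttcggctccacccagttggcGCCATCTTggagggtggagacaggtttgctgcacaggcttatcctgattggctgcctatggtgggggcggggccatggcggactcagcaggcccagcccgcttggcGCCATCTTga
Peg3 1660, chr7:6728661-6728860, minus strand: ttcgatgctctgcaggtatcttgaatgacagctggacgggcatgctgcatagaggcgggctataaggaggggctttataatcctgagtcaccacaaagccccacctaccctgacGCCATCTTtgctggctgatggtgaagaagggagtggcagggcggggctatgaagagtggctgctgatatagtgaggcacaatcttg
Peg3 1960, chr7:6728361-6728560, minus strand: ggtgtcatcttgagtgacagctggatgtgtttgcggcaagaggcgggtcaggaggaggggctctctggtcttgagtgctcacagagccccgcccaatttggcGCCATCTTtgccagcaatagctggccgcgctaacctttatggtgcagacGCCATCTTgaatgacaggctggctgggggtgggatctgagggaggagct
Peg3 2560, chr7:6727761-6727960, minus strand: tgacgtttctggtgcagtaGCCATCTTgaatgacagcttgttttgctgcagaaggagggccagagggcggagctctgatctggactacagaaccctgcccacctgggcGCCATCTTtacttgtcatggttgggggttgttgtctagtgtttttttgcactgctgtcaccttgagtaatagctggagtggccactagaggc

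These windows held 2, 1, 2 and 2 matches, and the window at 2840 bp held 0. The share of all peaks with a match was 3.43% and 3.31%. Among peaks in the loci of all members it was 3.08% and 4.07%, so the cluster describes Peg3 and not the set. Heights in replicate 1 were 12.3, 4.17, 5.25, 2.62 and 1.58 in order of distance, and in replicate 2 they were 15.9, 6.32, 8.36, 4.92 and 1.48. The nearest of these intron sites was therefore higher than the promoter peak of Peg3 itself, which had 2.32 and 2.25. Footprints of both libraries overlapped both matches at 840 bp and both at 1960 bp. At 1660 bp, and at 1 of the 2 matches at 2560 bp, only a footprint of replicate 2 did. Across all peaks a footprint overlapped 29.1% and 40.3% of YY1 matches.

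Most imprinted promoters were open in this kidney, but at low height. A promoter is the 500 bp on either side of any annotated start site, and its height is that of the highest peak overlapping it. Of the 36 genes, 30 had a promoter peak in both libraries (30 in replicate 1 and 32 in replicate 2), where 53.5% of all genes did. Open promoters numbered 25 of 30 among the protein-coding members, beside 65.3% of all protein-coding genes, and 5 of 6 among the long noncoding members, beside 28.1% of all long noncoding genes. Imprinted promoters are often rich in CpG dinucleotides, which promoter accessibility follows in general. When all genes were put in 10 classes by the CpG content of their promoters, observed over expected, the rates of the members' own classes came to 28.7 open genes. The count of 30 was thus near that of genes of like CpG content.

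Open members were low beside genes of like CpG content. Members open in each library, 30 in replicate 1 and 32 in replicate 2, had a median promoter height of 3.57 and 2.64. The mean of the CpG class medians, taken over all 36 members, was 6.85 and 6.31. Below the median of open genes of like CpG content in both libraries lay 22 of the 30 members open in both. Above it in both lay 7: Kcnq1ot1, Slc22a18, Ube3a, Commd1, Impact, Peg13 and Trappc9. Zim1 lay at the median, at 3.49 against 3.50 in replicate 1 and 4.26 against 3.40 in replicate 2. The median percentile among open genes of the same class was 25.4 over the 30 members of replicate 1 and 25.0 over the 32 of replicate 2. Only the latter include Dlk1 and Nnat, at the 0.933 and 2.46 percentile of replicate 2. With genes that lack a peak counted as 0, the mean of both libraries had a median of 32.1 over all 36 members. The log2 of the height in replicate 2 over that in replicate 1 had a median of -0.05 (SD 0.40) over the 30 members, from -0.97 at Mest to 0.68 at Zrsr1. It had a median of -0.03 (SD 0.47) over the 17124 other genes open in both.

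**Figure D1:**
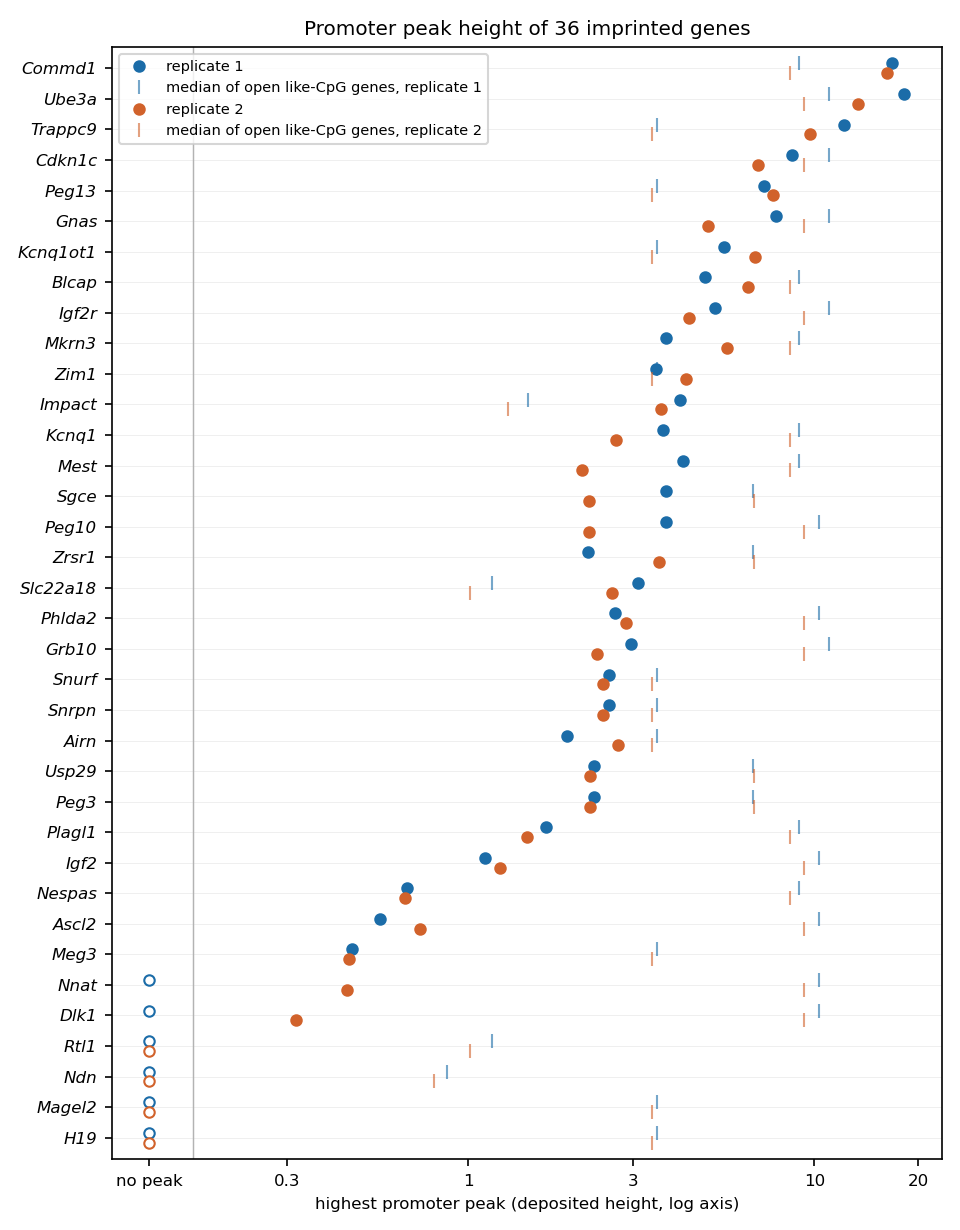
Highest promoter peak of each of 36 imprinted genes (rows, ordered by the mean of the libraries) on a log axis of deposited height, as filled points per library, with short bars at the median of open genes of the same CpG class. Open points at the left mark no peak. Most points lie left of their bars, while Commd1, Ube3a, Trappc9, Peg13, Kcnq1ot1, Impact and Slc22a18 lie right of theirs in both libraries.

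Of the 36 members, 16 have a known maternal germline DMR at or beside a promoter, where the egg's methylation marks the maternal copy. For Grb10 and Impact that region lies inside the gene, downstream of the main promoter. Gnas was not counted here, since its highest promoter peak is at the Gs alpha exon, although a germline DMR is known at exon 1A further upstream. Among these 16 genes, 15 were open in both libraries, 12 of them below and 3 above the class median in both. All 3 pairs that share a promoter peak are in this set, so the 12 rest on 9 distinct peaks. The other 20 members had 15 open promoters, with 10 below and 4 above. Median percentiles were 23.6 and 23.4 in the first set and 27.2 and 34.2 in the second. In both sets the members below their class median outnumbered those above it. Without Grb10 and Impact, 11 lay below and 2 above. With Gnas moved to the first set, 13 lay below and 3 above there, and 9 below and 4 above among the others.

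**Figure D2:**
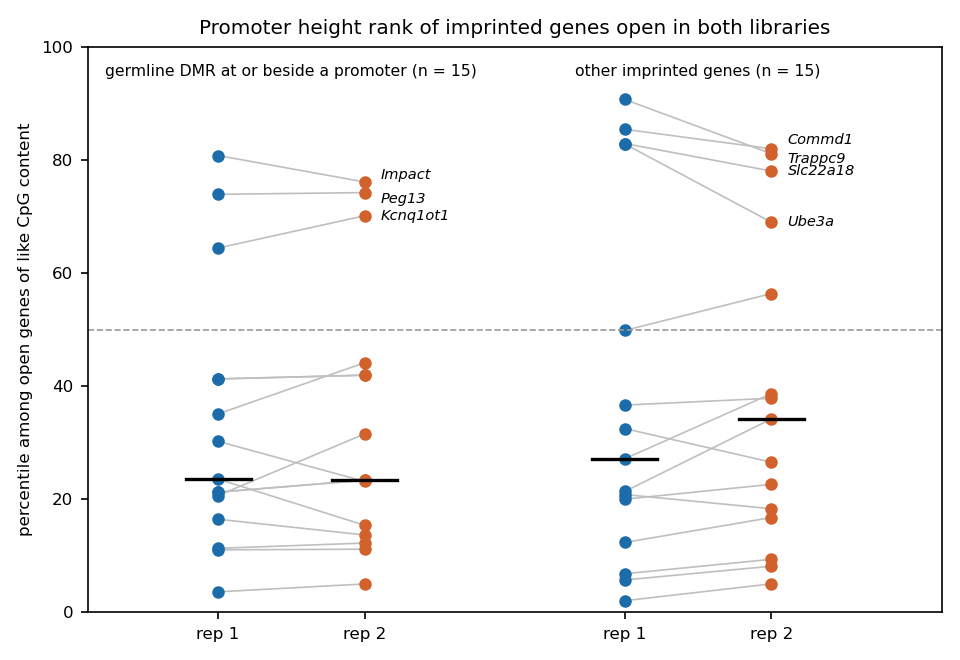
Percentile of each imprinted gene's promoter height among open genes of the same CpG class, with lines joining the libraries of a gene, for 15 genes with a maternal germline DMR at or beside a promoter and 15 others. Black bars are medians of the genes drawn and the dashed line is the class median; points below it outnumber those above in both sets.

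At the H19 and Igf2 locus the promoters were shut or low. H19 is a long noncoding RNA of the maternal copy (chr7:142575529-142578143), abundant in the fetus. It had no promoter peak in either library, and in replicate 2 only 9 bases of its promoter were listed at a false discovery rate below 0.05, the lowest at 0.0347. Igf2, the paternally expressed fetal growth factor (chr7:142650766-142666816), had a promoter height of 1.12 and 1.23, at the 5.74 and 8.17 percentile of open genes of its class. That peak lay at the most upstream of 4 groups of start sites, which is itself poor in CpG (observed over expected 0.0606). With the CpG content taken at the start site nearest the peak, a setting added after the values were seen, Igf2 lay above the median of its class, which was 0.778 and 0.676. A group further downstream had a peak of 0.735 in replicate 1 only, and the remaining groups had none. The highest peaks of the Igf2 locus outside promoters stood upstream, at -9035 bp with 1.77 in replicate 1 and at -9045 bp with 2.77 in replicate 2.

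Igf2r encodes the receptor that clears IGF2 from the cell surface and is maternally expressed; Airn is the paternal antisense transcript that starts in its intron and silences it. The Igf2r promoter had 5.18 and 4.34, and the Airn promoter, at the DMR, had 1.93 and 2.72. All were below the class medians of 11.0 and 9.34 for Igf2r and of 3.50 and 3.40 for Airn. Outside promoters, the highest site in the Airn transcript region was an intronic peak of 3.41 and 6.33, above the Airn promoter in both libraries.

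The members in the Dlk1 and Meg3 domain were nearly closed. Dlk1, a paternally expressed relative of Notch ligands that restrains fat cell formation, had no promoter peak in replicate 1 and 0.318 in replicate 2. Rtl1, a retrotransposon-derived gene needed in the placenta, had none in either library and no base listed at its promoter. Meg3, the maternal noncoding RNA of the domain (chr12:109541001-109571726), had 0.461 and 0.452 at the most downstream of 3 groups of start sites and no peak at the others. With curated RefSeq starts Meg3 had no promoter peak in either library. No peak of replicate 1 lay in the Dlk1 gene or within 10 kb of it, and 3 of replicate 2 did.

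In the Peg3 domain, Peg3 and Usp29, a ubiquitin protease gene, start on opposite strands and share the promoter peak of 2.32 and 2.25. Their class medians were 6.63 and 6.68. Zim1, the maternally expressed zinc finger neighbour, had 3.49 and 4.26. Within the long Usp29 gene an intronic site reached 5.68 and 8.98.

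Peg10 and Sgce also share a promoter across opposite strands. Peg10 (chr6:4747306-4760517) derives from a retrotransposon and is needed for the placenta, and Sgce encodes epsilon-sarcoglycan of the muscle membrane complex. The common peak had 3.73 and 2.24, at the 16.5 and 13.7 percentile of open genes in the class of Peg10. Inside Peg10 an intronic peak at 1935 bp in replicate 1 and 1895 bp in replicate 2 reached 10.8 and 9.21. Mest, a paternally expressed mesoderm gene, had 4.19 and 2.13 at its imprinted start site and no peak at its upstream start site. Mest had the largest fall in height from replicate 1 to replicate 2 among the open members, with a log2 ratio of -0.97.

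Nnat, a small membrane proteolipid gene of brain and islets (chr2:157560078-157562522), lies in an intron of Blcap, a broadly expressed gene. At the Nnat start site replicate 1 had no peak and replicate 2 had 0.447. A site 1241 bp and 1221 bp inside Nnat, in its untranslated region, had 7.03 and 12.6. Blcap had 4.82 and 6.42 at its own promoter, below the class medians of 9.02 and 8.50.

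**Figure D3:**
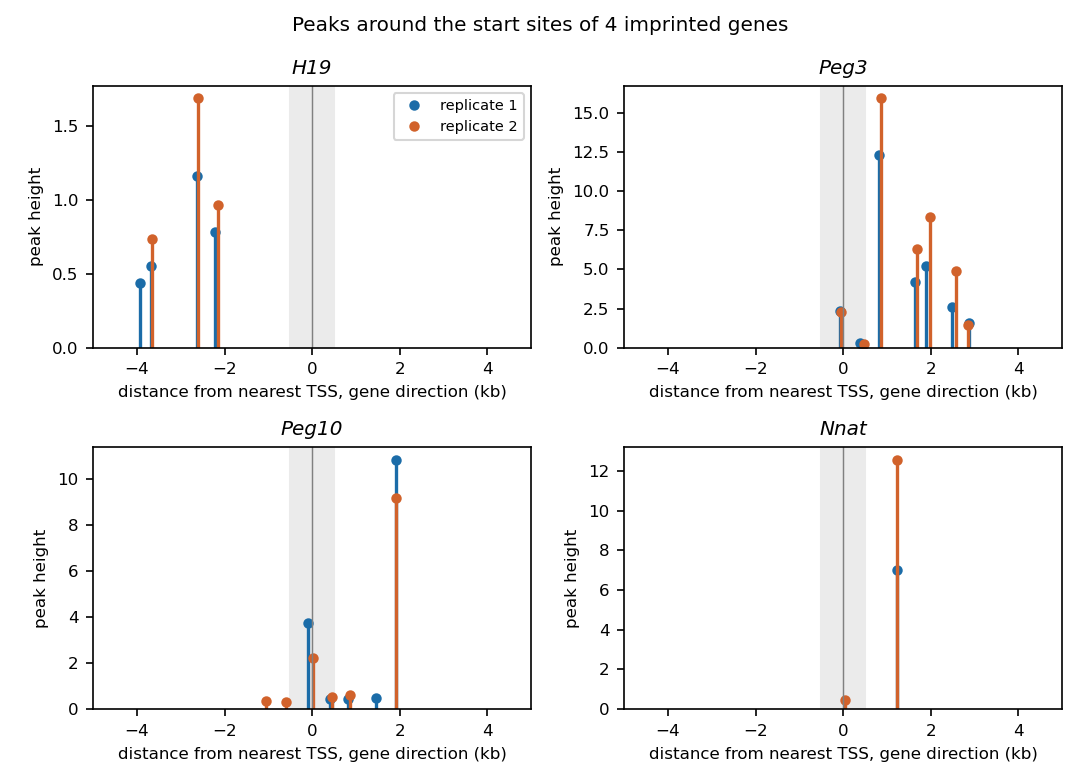
Peaks within 5 kb of a start site of H19, Peg3, Peg10 and Nnat; each line is a peak at the distance of its midpoint (kb, in the direction of the gene) with its deposited height, and the grey band is the promoter. H19 has peaks upstream only and none in the band, and the highest peaks of Peg3 (12.3 and 15.9), Peg10 (10.8 and 9.21) and Nnat (7.03 and 12.6) lie inside the gene beyond the band.

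Higher peaks inside the gene than at the promoter were then counted for all members, a comparison chosen after these values were seen. A peak inside the gene and within 5 kb of a start site was higher than the promoter peak in both libraries at 6 of the 30 open members, and at 6.52% of all genes open in both. The 6 were Peg3, Peg10, Grb10, Zrsr1, Impact and Blcap, the last through the site in Nnat. Of the members without a promoter peak in both libraries, Nnat, Ndn and Rtl1 also had such a peak. Where a promoter has no peak, any peak inside the gene counts as higher. No share over all genes was taken for this set. The Nnat site is the one already counted for Blcap, and at Rtl1 the peak had only 0.342 and 0.258. The Ndn peak is its promoter peak when curated RefSeq starts are used. At Impact, a regulator of the amino acid stress response (chr18:12955852-12992950), the inside peak had 5.84 and 6.92 and the promoter 4.10 and 3.60. At Grb10, an adaptor that dampens insulin and IGF signalling, an intronic peak had 4.20 and 3.36 and the promoter 2.96 and 2.36. These inside peaks of Impact and Grb10 lie in introns, where their germline DMRs are known to be.

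The Gnas locus (chr2:174284320-174346744) makes several transcripts from separate first exons, which run in gene order from the maternal Nesp through the paternal XL and 1A to the exon of Gs alpha, the stimulatory G protein that is imprinted in proximal tubule. Its 4 groups of start sites had 0.615 and 0.864, then 0.667 and 0.790, then 1.49 and 1.18, and last 7.73 and 4.93. The most downstream group was the highest in both libraries, and the 3 others were low. Nespas, the paternal antisense transcript, had 0.667 and 0.656, at the 3.64 and 5.03 percentile of open genes of its class. That class comes from another Nespas start site, richer in CpG than the one at the peak. With the CpG content taken at the start site nearest the peak, the class medians were 3.51 and 3.35, and Nespas still lay below them. The highest site of Gnas outside promoters differed between the libraries. An intronic site of 5.09 and 8.84 led in replicate 1, and another of 4.15 and 10.3 led in replicate 2.

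**Figure D4:**
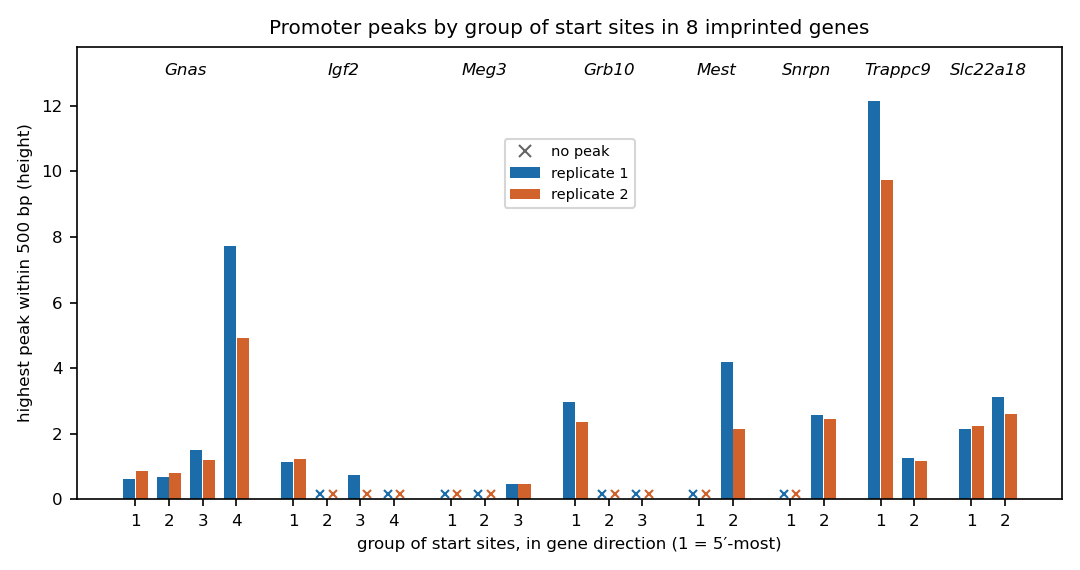
Highest peak within 500 bp of each group of start sites (sites within 1 kb of each other) for 8 imprinted genes, in gene direction, with a bar per library and crosses for no peak. In Gnas the most downstream group stands above the others (7.73 and 4.93), and in Mest and Snrpn the most upstream group has no peak.

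The Kcnq1 domain held both low and high promoters. Kcnq1ot1, the paternal antisense RNA that silences the domain (chr7:143203458-143296549), had 5.48 and 6.76, above its class medians of 3.50 and 3.40. Kcnq1, the potassium channel gene in which it lies, had 3.65 and 2.67. Cdkn1c, an inhibitor of the cell cycle that is also a podocyte gene, had 8.64 and 6.89 and was the highest of the domain's genes among the 36, although below its class medians of 11.0 and 9.34. Slc22a18, an organic cation transporter gene, had 3.10 and 2.61 against class medians of 1.18 and 1.01. Phlda2, which restrains placental growth, had 2.66 and 2.86. Ascl2, a factor of trophoblast and intestinal stem cells, had 0.556 and 0.725, and with RefSeq starts no peak in replicate 1 and 0.318 in replicate 2. Upstream of Cdkn1c lay sites of 7.10 and 2.47 at -3031 bp and of 4.84 and 5.46 at -5431 bp. A site -3500 bp from the Phlda2 start had 6.19 and 9.70, higher than the promoters of Phlda2 and Slc22a18. Kcnq1 carried an intronic site of 7.44 and 7.34 at 46470 bp.

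The Snrpn domain, whose loss underlies Prader-Willi and Angelman syndromes in people, split by gene. Snrpn (chr7:59982495-60140219) and Snurf, which encode a splicing protein and a small peptide from a joint transcript, share a promoter of 2.56 and 2.46 at the DMR, and the upstream Snrpn start site had no peak. Necdin (Ndn) and Magel2, both of the MAGE family, had no promoter peak in either library. Ndn did have a peak 1712 and 1722 bp inside the GENCODE gene, of 1.56 and 1.49. The curated RefSeq start of Ndn lies 1708 bp from the GENCODE start, so with RefSeq starts this site is its promoter peak. Magel2 had 0 bases listed in replicate 1 and 4 in replicate 2, the lowest at 0.0474. Mkrn3, a ubiquitin ligase gene that restrains puberty, had 3.73 and 5.59. Ube3a, the ubiquitin ligase of Angelman syndrome that is imprinted in neurons (chr7:59228750-59311536), had 18.2 and 13.4, and its class medians were 11.0 and 9.34.

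Host and guest genes stood apart in the Commd1 and Trappc9 loci. Zrsr1 is a paternally expressed splicing factor gene that arose by retrotransposition into an intron of Commd1 (chr11:22896136-22982382), a copper and trafficking factor. Zrsr1 had 2.22 and 3.56, and Commd1 had 16.7 and 16.2. A peak 946 bp inside Zrsr1 had 4.53 and 5.78. Peg13 is a paternal noncoding RNA inside Trappc9 (chr15:72589620-73061204), which encodes a subunit of a vesicle tethering complex. Peg13 had 7.17 and 7.61 and Trappc9 had 12.2 and 9.73, each above the class medians of 3.50 and 3.40. Hosts were thus higher than guests in both libraries at these pairs, and the Blcap promoter was higher than that of Nnat. Kcnq1ot1 and its host Kcnq1 went the other way, at 5.48 and 6.76 against 3.65 and 2.67. The highest site of the Trappc9 locus, 20.5 and 22.0, lay upstream at -6427 and -6417 bp.

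Plagl1, a paternally expressed zinc finger gene of an imprinted gene network, had 1.68 and 1.48 at its DMR promoter, at the 11.1 and 11.2 percentile of open genes of its class. Grb10 had its peak at the most upstream of 3 groups of start sites, at the 11.3 and 12.3 percentile, and none at the others.

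Promoters at germline DMRs are known to hold the hexamer TGCCGC, which ZFP57 binds when it is methylated. It was found on either strand in 25 of 36 member promoters (69.4%) and in 33.1% of all promoters. This window is 1001 bp long, or longer with several start sites, and members are richer in CpG than most genes, so the shares are descriptions. Of the peaks in the members' loci, 16.3% and 13.1% held the hexamer within 200 bp, and 7.03% and 6.03% of all peaks did. The promoter peaks of 4 members are printed on the strand of the gene, outside untranslated sequence, with the hexamer of either strand in capitals. They were chosen to show sites with and without an overlapping footprint.
Snrpn, chr7:60005112-60005250, minus strand: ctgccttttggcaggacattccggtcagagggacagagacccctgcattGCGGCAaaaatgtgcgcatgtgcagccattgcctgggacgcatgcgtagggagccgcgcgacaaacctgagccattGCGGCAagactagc
Mest, chr6:30737941-30738049, plus strand: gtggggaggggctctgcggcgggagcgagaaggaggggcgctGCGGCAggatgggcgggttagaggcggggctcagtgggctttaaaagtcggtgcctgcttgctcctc
Peg13, chr15:72809961-72810160, minus strand: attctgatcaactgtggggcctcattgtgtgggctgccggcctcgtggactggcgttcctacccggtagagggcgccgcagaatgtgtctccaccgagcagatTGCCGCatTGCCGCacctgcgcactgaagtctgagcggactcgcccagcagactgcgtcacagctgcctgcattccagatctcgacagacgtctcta
Peg10 and Sgce, chr6:4747208-4747305, plus strand: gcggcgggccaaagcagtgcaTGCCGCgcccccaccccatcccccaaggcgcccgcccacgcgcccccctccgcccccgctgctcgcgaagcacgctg

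Footprints of both libraries overlapped both hexamers of Peg13, 1 of the 2 of Snrpn and the match of Peg10. The match of Mest had no footprint in either library. The promoter peak of Kcnq1ot1 held no match in its 200 bp, and its next peak, at 808 bp in replicate 1, held 3. Over all peaks of the members' loci, footprints overlapped 16.7% and 36.1% of hexamers, and over all peaks of the libraries 23.8% and 38.2%. The members' share was thus not above that of all peaks.

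Median footprints at member promoters did not exceed those of their CpG classes. The 30 members open in both libraries had a median of 4.5 and 6 footprints in the promoter. The mean of the class medians, taken over all 36 members, was 4.83 and 7.25. Of the 30 members open in replicate 1, 9 lay above the class median and 14 below. Of the 32 open in replicate 2, 9 lay above and 20 below. Gnas had the most, with 14 and 32 over its 4 groups of start sites, and Blcap had 13 and 11. Impact had 1 and 4.

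Loci of imprinted genes held somewhat more peaks than those of other genes. Over the gene and 10 kb on each side the median was 0.116 and 0.153 peaks per kb, beside 0.0790 and 0.109 for all genes tested and 0.0787 and 0.106 for genes of like length. The densest was Phlda2 with 0.370 and 0.787, followed by Slc22a18 with 0.307 and 0.570, and these neighbours share peaks. When overlapping loci were merged into 23, the median was 0.0858 and 0.133. With 50 kb on each side the medians were 0.0865 and 0.105 for members and 0.0759 and 0.106 for all genes, so the excess was absent from replicate 2. Dlk1 was the lowest in replicate 1, with 0 there and 0.0983 in replicate 2, and Snrpn was the lowest in replicate 2, with 0.0281 and 0.0338.

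Peaks of replicate 1 in these loci recurred in replicate 2 somewhat more often than peaks elsewhere, and peaks of replicate 2 recurred in replicate 1 about as often. Of 227 distinct locus peaks of replicate 1, 210 overlapped a peak of replicate 2 by at least 1 bp (92.5%, exact 95% binomial interval 88.3% to 95.6%), where 87.6% of all peaks did. Of 344 in replicate 2, 212 overlapped a peak of replicate 1 (61.6%, 56.3% to 66.8%), where 62.2% of all did. The intervals cover counting error over peaks only. A footprint lay in 77.5% and 85.8% of the locus peaks. The share over all peaks was not taken, so these values are not compared with other sites.

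A further list of imprinted genes outside the 36 gave 32 open in both libraries of 41 measured, where the rates of their CpG classes came to 29.9. Those open in each library had a median height of 2.08 and 1.59, below the 3.57 and 2.64 of the open members. The highest were Dhcr7, the last enzyme of cholesterol synthesis, with 25.3 and 25.6; Inpp5f, an inositol phosphatase, with 18.8 and 25.5; and Nap1l4, a histone chaperone, with 16.4 and 16.7. Tssc4, a splicing factor, had 14.3 and 18.3, and Copg2, a vesicle coat subunit, 14.8 and 9.18. Kcnk9, Mirg, Rian, Zdbf2 and Zim2 were among 7 without a peak in either library. Rian and Mirg lie downstream of Meg3 in the same domain. Dio3, also of that domain, was open in both libraries, at 2.12 and 1.62.

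Genes that write, keep or read imprints were mostly open, near the rate of genes of like CpG content. Of 20, 16 had a promoter peak in both libraries, and their classes' rates came to 17.4. Yy1 led with 20.1 and 15.2, followed by Uhrf1, which brings the maintenance methyltransferase to new DNA, with 14.2 and 13.7. Arid4a, a chromatin reader of the Snrpn domain, had 12.2 and 15.0, Setdb1, a histone H3 methyltransferase that acts with ZFP57, 13.2 and 13.6, and Dnmt1, the maintenance methyltransferase, 12.99 and 11.1. Zfp57 was open but low, at 1.00 and 2.42, where the medians of open genes of its class were 6.63 and 6.68. Tet1, Ctcfl and Dppa3, known from germ cells and early embryos, had no promoter peak, and Dnmt3l had 0.298 in replicate 2 only.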

How the data were processed

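DNase-seq of 2 kidney libraries was analysed from the depositors' processed files, all on mm10 per the labels. The authors deposited, per library, a pair of peak lists whose signal value is the peak height, a footprint list, and a list of per-base false discovery rates (q-values) below 0.05. The deposited footprint list gives a q-value of 0.01 throughout. The aligner, the callers, their versions and any allowance for CAST/EiJ variants are absent from the labels and headers read here, and nothing in the files separates the alleles.

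The longer peak list was used, and the shorter, stricter list was an alternative. Start sites came from GENCODE M21 basic and sequence from GRCm38.p6. CpG content was the highest observed over expected among a gene's promoters, in 10 classes over 32052 genes. Percentiles were taken among genes of the same class that are not members. Promoter calls and percentiles were tested on simulated data. Python 3.11.15, pandas 2.3.3 and scipy 1.17.1 were used. The text accounts for every member and names up to 3 of the highest locus peaks outside promoters. Of each further list it names up to 5 of the highest genes and up to 5 without a peak, and Dio3 and Zfp57 besides. The members and lists were chosen with earlier results of these data known.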

Additional observations from a re-analysis of the deposited data

How the results depend on the processing

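The counts of open members and of members above the class median stayed within 1.5 times of the reported value under all alternatives run (counts of open members from 26, with the most upstream start site only, to 33, with promoters of 2 kb; counts above the median from 6 to 8). RefSeq starts gave 28 open members, with Ndn gained, Meg3 and Ascl2 lost and Nespas without a curated start; the stricter list gave 28. The median percentile of 32.1 was 30.1 with comparators of the same biotype, 29.7 with CpG number, 33.7 with the most upstream start site, and between 29.9 and 31.4 with a library left out. Peak density over both libraries, 0.137 per kb, was 0.178 without flanks, 0.0973 with 50 kb, 0.0766 without peaks near start sites and 0.0931 in the stricter list; medians of all genes moved too, and members stayed above them except in replicate 2 with 50 kb. Recurrence was 81.9% with reciprocal overlap of 50% (78.2% for all peaks) and 96.7% in the stricter list (94.98%). The shares in all peaks moved with them. Median footprints stayed between 4.5 and 6. No paired analysis was possible because the libraries form 1 group.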
